A study of Mus musculus with 6 samples.

Results

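The writers, erasers and readers of N6-methyladenosine (m6A) were followed as 10 genes, taken from the table of normalized counts by their symbols. The writers were *Mettl3*, *Mettl14*, *Wtap* and *Zc3h13*, the erasers *Fto* and *Alkbh5*, and the readers *Ythdf1*, *Ythdf2*, *Ythdf3* and *Ythdc1*. All 10 were found among the 55421 genes of the table, and all 10 were among the 17640 genes tested, the filter being a mean normalized count of 10 or more over the 6 libraries.

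m6A is a methyl mark on adenosines inside messenger RNA. The nuclear writer complex places it while RNA is being made, the erasers are oxygenases that can remove it, and proteins with a YTH domain bind it and direct splicing, export, translation or decay of the marked RNA. The writers are known to be needed for the development of B cells and for the germinal center reaction.

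hnRNPL is an RNA-binding protein that prefers CA-rich RNA and regulates splicing and stability of transcripts. B cells from the spleen were cultured for 24 h with 5 µg/ml LPS and 5 ng/ml IL-4 to activate them, those that expressed GFP were sorted, and poly(A) RNA gave 1 library per mouse and 3 libraries a group. The WT mice carried CD21-cre and the Rosa mT/mG reporter with intact *Hnrnpl*, and the hnRNPL-deficient mice carried the same Cre and reporter alleles with both copies of *Hnrnpl* floxed. Because the controls carry Cre and the reporter too, both groups consist of cells in which Cre had been active, and CD21-cre acts mostly in mature B cells. Per the study's methods, mice of both sexes older than 6 weeks on the C57BL6/J background were used, and the sex and age behind each library are not given in the sources used here. GFP reports recombination of the reporter and not of *Hnrnpl* itself. The libraries measure the messenger RNA of these genes, and neither m6A nor protein. Each value is a total per gene, so a change in which exons are joined can leave it unchanged. Splicing of these genes was not tested. The paper reports many altered splicing events in these cells, in genes that overlapped little with those changed in expression.

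The libraries held 40395186 to 75180749 reads on genes. *Hnrnpl* (chromosome 7) had 24371, 25579.7 and 24174 normalized counts in WT replicates 1 to 3 and 2178, 1519 and 1297 in hnRNPL-deficient replicates 1 to 3, so every library matched its label. The 6 B cell markers summed to 274249 to 350783 normalized counts in WT and 266462 to 312659 in hnRNPL-deficient cells, against 19.7 to 27.7 and 28.3 to 38.4 for 6 T cell markers and 0 to 2.29 and 3.03 to 9.02 for 4 NK cell markers. The 6 myeloid markers summed to 260.0 to 331 in WT and 1239 to 1382 in hnRNPL-deficient cells, nearly all of it *Adgre1*: the other 5 summed to 7.78 to 24.4 and 12.3 to 21.6, and 2 of them, *S100a8* and *S100a9*, were at 0 in every library. The 6 erythroid markers summed to 17.6 to 38.3 in WT and 55.0 to 84.8 in hnRNPL-deficient cells, and 4 plasma cell genes to 33848 to 39454 and 33282 to 36338. The groups did not overlap for *Adgre1* and for the T, NK and erythroid sums, and their part in the differences of the m6A genes was not tested. In these bulk libraries, fewer cells of a type and less RNA per cell cannot be told apart.

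None of the 10 genes passed the test between genotypes, which did not pair libraries by replicate number. In limma with Benjamini-Hochberg adjustment over all tested genes, 0 of 10 had an adjusted p under 0.1 (range 0.146 to 0.943), where 18.0% of all tested genes did (10.0% were higher and 7.97% lower in hnRNPL-deficient cells). Likewise 0 of 10 had both that and a fold change of at least 1.5, against 11.4% of all tested genes. One gene, *Mettl14*, was at an unadjusted p under 0.05, that is 1 of 10 against 27.4% of all tested genes. The edgeR and DESeq2 tests used the recovered reads of 5 libraries, without hnRNPL-deficient replicate 2. They also passed 0 of 10, where 13.5% and 16.6% of all tested genes passed. Each had 1 of 10 at an unadjusted p under 0.05. With the replicate number as a block in limma, 4 of 10 passed, against 32.9% of all tested genes. The numbers are not shown to pair the mice.

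The intervals of the 10 genes were narrow. The log2 fold changes of hnRNPL-deficient against WT cells ran from -0.22 for *Ythdf2* to 0.25 for *Mettl14*, with 6 above 0, 4 below 0 and a median of 0.014. The median absolute change was 0.119, against 0.278 for all tested genes and 0.187 for the 5462 tested genes whose mean lay between those of *Mettl3* and *Alkbh5*. The standard errors of the 10 genes were 0.0904 to 0.139, where the median over all tested genes was 0.189. Among the 5462 genes at the same level the median was 0.120, inside the range of the 10 genes. The 95% intervals of all 10 lay within a 1.5-fold change in either direction, the outermost bounds being -0.49 and 0.48, which held for 34.4% of all tested genes and 67.2% of those at the same level. Behind these values stood 872 reads (*Mettl3*) to 13065 reads (*Alkbh5*) per gene and library.

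**Figure D1:**
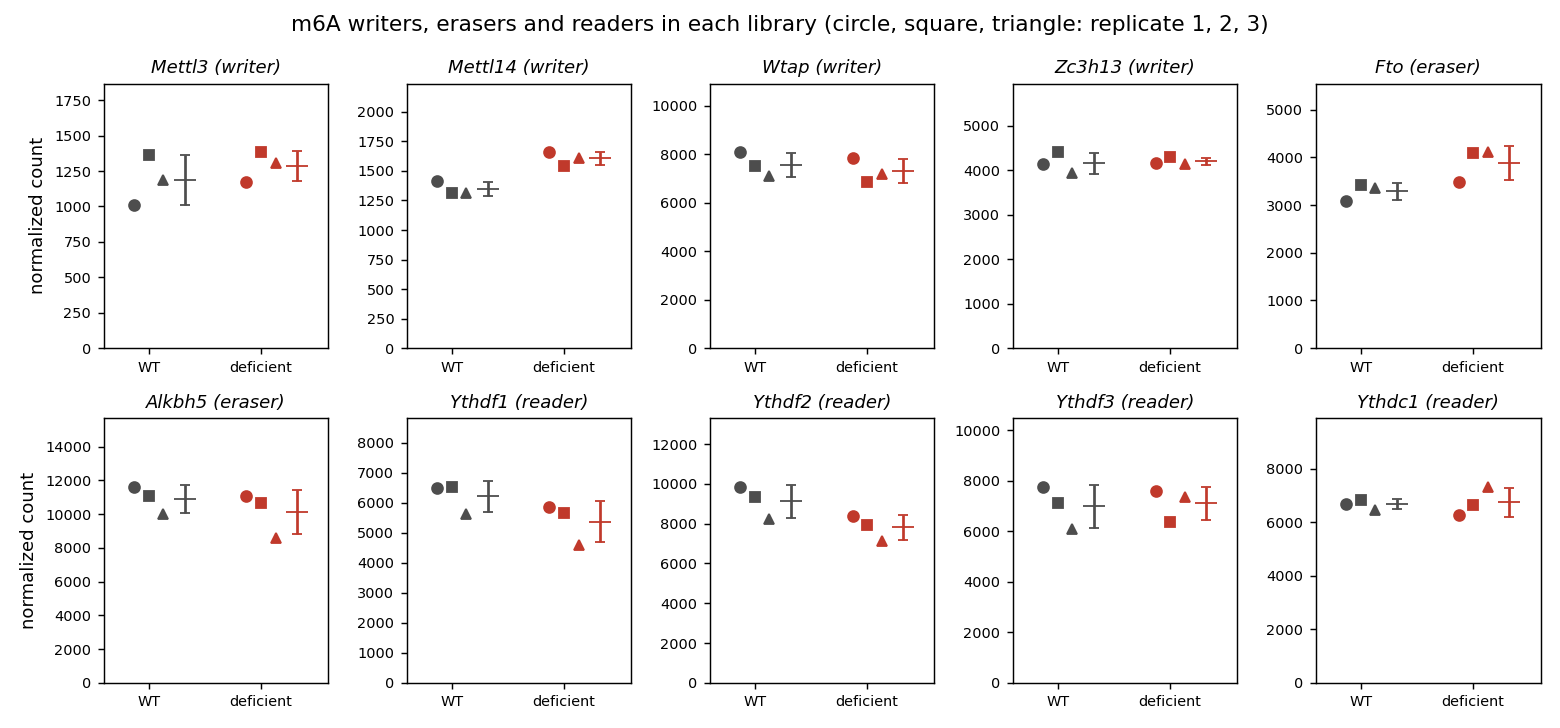
Normalized counts (y axis, linear from 0) of the 10 m6A genes in each library of WT (grey) and hnRNPL-deficient (red) B cells, with replicates 1 to 3 as circle, square and triangle and the mean ± SD (n = 3) as a cross and bar. The groups are apart for *Mettl14* and *Fto* and overlap for the other 8 genes.

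Neither gene of the catalytic pair of the writer complex passed the test, and the groups were apart for *Mettl14* only. *Mettl3* (chromosome 14, 52294841 to 52305128 in GRCm38), which carries the methyltransferase active site, had 1012, 1367 and 1188 normalized counts in WT replicates 1 to 3 and 1174, 1383 and 1308 in hnRNPL-deficient replicates 1 to 3. The deficient libraries lay inside or just above the WT range, and WT replicate 1 was the lowest of all. The means were 1189 ± 177 and 1288 ± 106 (SD, n = 3), a log2 change of 0.12 (standard error 0.139, 95% interval -0.20 to 0.44, adjusted p = 0.606 in limma). *Mettl3* overlaps 933 exonic bases of *Tox4* on the opposite strand, and the authors' counting used strand.

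*Mettl14* (chromosome 3, 123368297 to 123386108), which does not catalyse but holds the RNA for *Mettl3*, had 1411, 1314 and 1315 normalized counts in WT and 1659, 1546 and 1613 in hnRNPL-deficient replicates 1 to 3. The groups did not overlap: every deficient library lay above every WT library. The means were 1347 ± 55.7 and 1606 ± 56.9, so the deficient mean was 119% of WT. The log2 fold change was 0.25 (standard error 0.101, 95% interval 0.024 to 0.48), with p = 0.0340 before and 0.146 after adjustment in limma, and p = 0.1 in a two-sided exact permutation test, the smallest that 3 against 3 allows. Settings in which it passed include libraries scaled to equal totals (0.31, adjusted p = 0.0684 in limma) and array quality weights (0.28, adjusted p = 0.0452), within a range of 0.0452 to 0.329 over all alternatives. In these settings 19.1% and 27.0% of all tested genes passed.

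Neither scaffold gene of the complex passed. *Wtap* (chromosome 17, 12966796 to 12994169), which anchors the catalytic pair in nuclear speckles, had 8084, 7499 and 7091 normalized counts in WT and 7859, 6874 and 7166 in hnRNPL-deficient cells. *Zc3h13* (chromosome 14, 75284373 to 75344426), which holds the complex in the nucleus, had 4139.55, 4409.54 and 3939.91 in WT and 4173, 4294 and 4134 in hnRNPL-deficient cells. The groups overlapped for both genes, and the 3 deficient *Zc3h13* values lay wholly inside the WT range. The log2 fold changes were -0.050 for *Wtap* (standard error 0.0979, adjusted p = 0.775 in limma) and 0.014 for *Zc3h13* (standard error 0.0904, adjusted p = 0.938). Scaling to equal totals or by quantiles turned the sign of *Wtap*, to 0.0047 and 0.076.

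Of the erasers, *Fto* had the larger difference. *Fto* (chromosome 8, 91313525 to 91668439), a demethylase of m6A and of the cap-adjacent m6Am, had 3093, 3426 and 3354 normalized counts in WT and 3479, 4083 and 4109 in hnRNPL-deficient replicates 1 to 3. The groups did not overlap, though deficient replicate 1 lay only just above the highest WT library. The means were 3291 ± 175 and 3890.42 ± 356, a log2 fold change of 0.24 (standard error 0.105, 95% interval -0.0011 to 0.48). In limma its p was 0.0508 before and 0.184 after adjustment. *Mettl14* and *Fto* were thus the 2 of 10 genes whose groups did not overlap, against 34.0% of all tested genes. Both had higher values in deficient cells.

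*Alkbh5* (chromosome 11, 60536381 to 60558512), the nuclear m6A demethylase, had 11609, 11089.6 and 9991 normalized counts in WT and 11066, 10633 and 8612 in hnRNPL-deficient replicates 1 to 3. The groups overlapped, and deficient replicate 3, which also had the fewest reads on genes of the 6 libraries, was the lowest; the part of depth was not tested. The log2 fold change came to -0.11 (standard error 0.120, 95% interval -0.39 to 0.16, adjusted p = 0.574 in limma). It was 0.0060 after quantile normalization and -0.0038 without deficient replicate 3.

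Since hnRNPL prefers CA-rich RNA, the longest coding transcript of each gene was searched on its own strand for the octamer CACACACA. Introns, and exons outside that transcript, were not searched. Among the 10 genes it was found in *Fto* alone, in the 3′ UTR, where it forms an uninterrupted run of 16 bases. The octamer is in 17.5% of the 11532 tested genes with a coding transcript, and in 19.4% of the 7609 whose transcript is between 2025 and 7197 bases long, as those of the 10 genes are. The run is shown because *Fto* is one of the 2 genes whose groups did not overlap, with the run in capitals and the window at chr8:91524802-91524831, plus strand, GRCm38. The match is a description, and binding there was not measured.
Fto 3′ UTR: aggaaaaCACACACACACACACActttaac

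**Figure D2:**
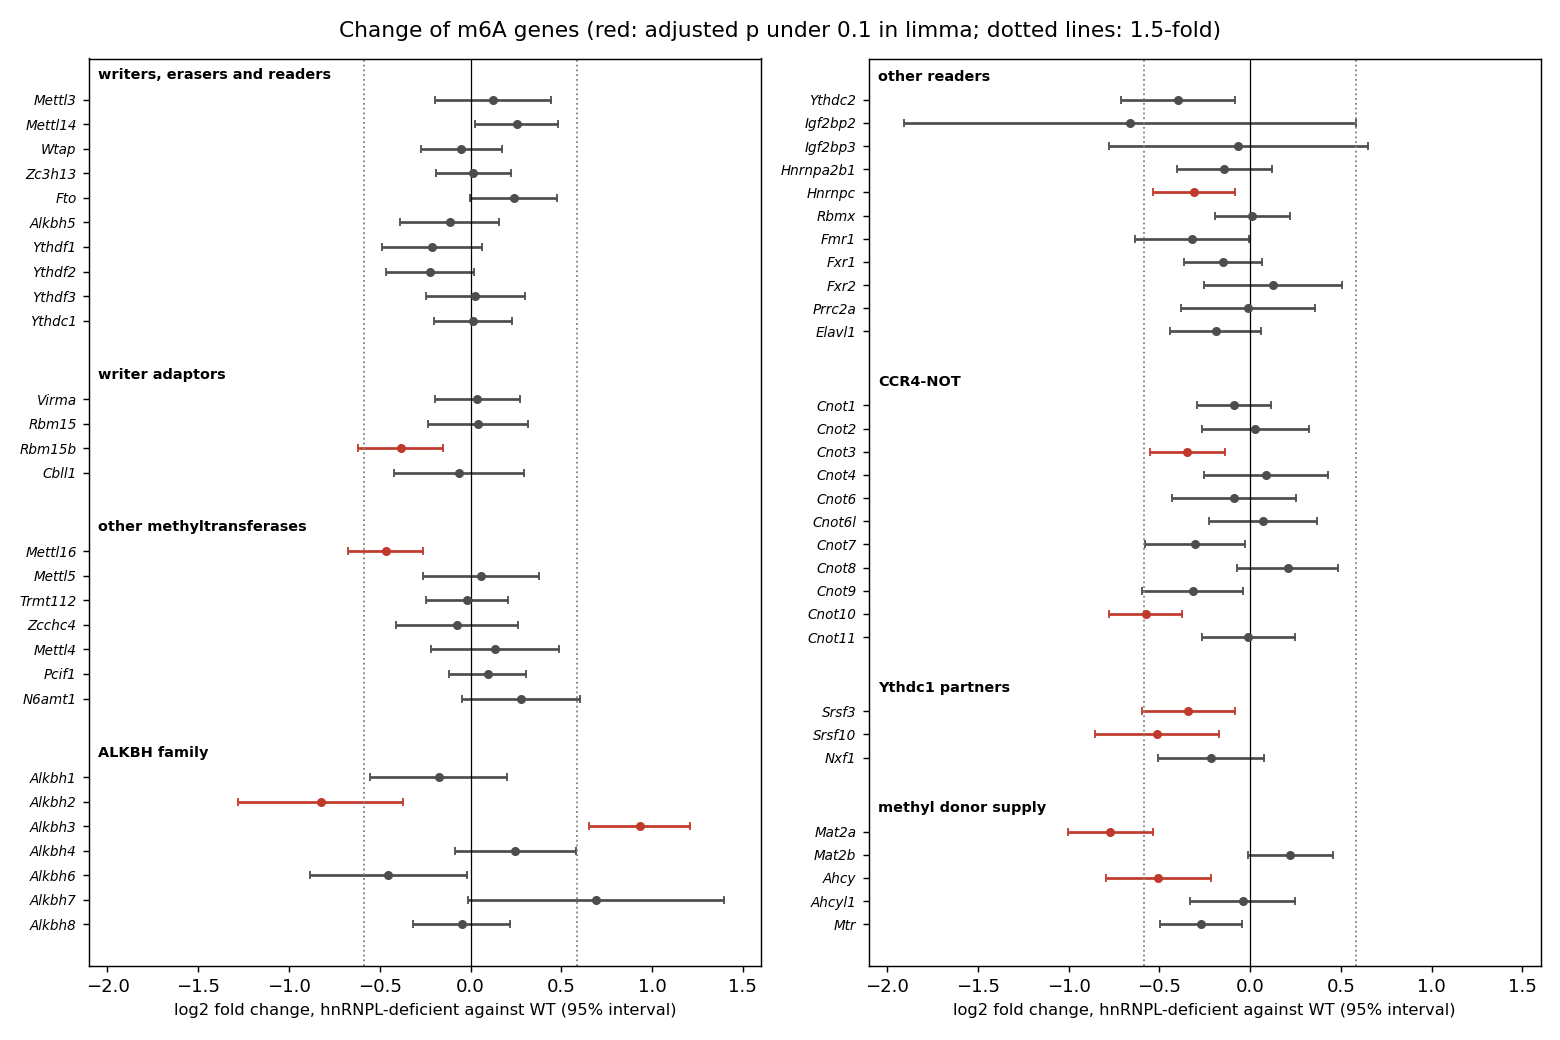
Log2 fold change of hnRNPL-deficient against WT cells with its 95% interval from limma (x axis). Shown are the 10 writers, erasers and readers and 48 further listed genes by role, with an adjusted p under 0.1 in red. Dotted lines are at a 1.5-fold change. No point of the 10 genes is red and their intervals lie between -0.49 and 0.48, while 10 further genes are red on the lower side and *Alkbh3* on the higher side.

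None of the cytoplasmic readers passed. *Ythdf1* (chromosome 2, 180904377 to 180920949), known for a part in translation, had 6488, 6529.58 and 5623 normalized counts in WT and 5856, 5671 and 4597 in hnRNPL-deficient replicates 1 to 3. *Ythdf2* (chromosome 4, 132184912 to 132212303), which recruits the CCR4-NOT deadenylase and leads marked RNA to decay, had 9847, 9343 and 8219 in WT and 8369.93, 7935 and 7155 in deficient cells. For each of these 2 genes WT replicates 1 and 2 lay above all deficient libraries, and WT replicate 3 lay among them. The log2 fold changes were -0.21 for *Ythdf1* (standard error 0.121, 95% interval -0.49 to 0.063, adjusted p = 0.296 in limma) and -0.22 for *Ythdf2* (standard error 0.107, 95% interval -0.47 to 0.021, adjusted p = 0.219).

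*Ythdf3* (chromosome 3, 16183212 to 16217037), the third cytoplasmic paralog, had 7749.9, 7134 and 6083 normalized counts in WT and 7591, 6365 and 7362 in hnRNPL-deficient cells. The deficient values lay inside the WT range. The log2 fold change came to 0.027 (standard error 0.120, 95% interval -0.25 to 0.30, adjusted p = 0.908 in limma).

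*Ythdc1* (chromosome 5, 86804221 to 86836659), the nuclear reader that works with SR proteins in splicing and export, had 6698, 6850.35 and 6471 normalized counts in WT and 6277, 6643 and 7322 in hnRNPL-deficient cells. The deficient libraries spread to both sides of the narrow WT range. The log2 fold change came to 0.013 (standard error 0.0945, 95% interval -0.20 to 0.23, adjusted p = 0.943 in limma). Of its 100-base stretches 4.30% also occur in transcripts of 4 other genes, so a small part of its count is uncertain. The share was 2.53% for *Wtap*, 1.22% for *Ythdf2*, 0.234% for *Mettl3* and 0% for the other 6 genes.

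Levels of different genes were compared per kilobase of annotated exon. The order in WT was *Ythdf2* (1998 normalized counts per kb), *Ythdf1* (1874), *Alkbh5* (1820.02), *Ythdf3* (1303), *Wtap* (1209.68), *Zc3h13* (663), *Ythdc1* (489), *Fto* (253), *Mettl3* (234) and *Mettl14* (182), an 11.0-fold span. The WT ranges overlapped between *Ythdf2* and *Ythdf1*, *Ythdf1* and *Alkbh5*, *Ythdf3* and *Wtap*, and *Fto* and *Mettl3*. Within each WT library, *Ythdf2* was still above *Ythdf1* (*Ythdf1* to *Ythdf2* 0.909, 0.964 and 0.943) and *Ythdf1* above *Alkbh5*. The order of *Ythdf3* and *Wtap*, and of *Fto* and *Mettl3*, was not the same in every WT library. The median over all tested genes was 194, and of the 10 genes *Mettl14* alone lay under it. The order depends on the length used: per kb of the longest coding transcript, *Wtap* (2372), *Ythdf2* (2213) and *Ythdc1* (2041) came first. *Mettl3* (587) and *Mettl14* (187) were the lowest on that scale as well.

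**Figure D3:**
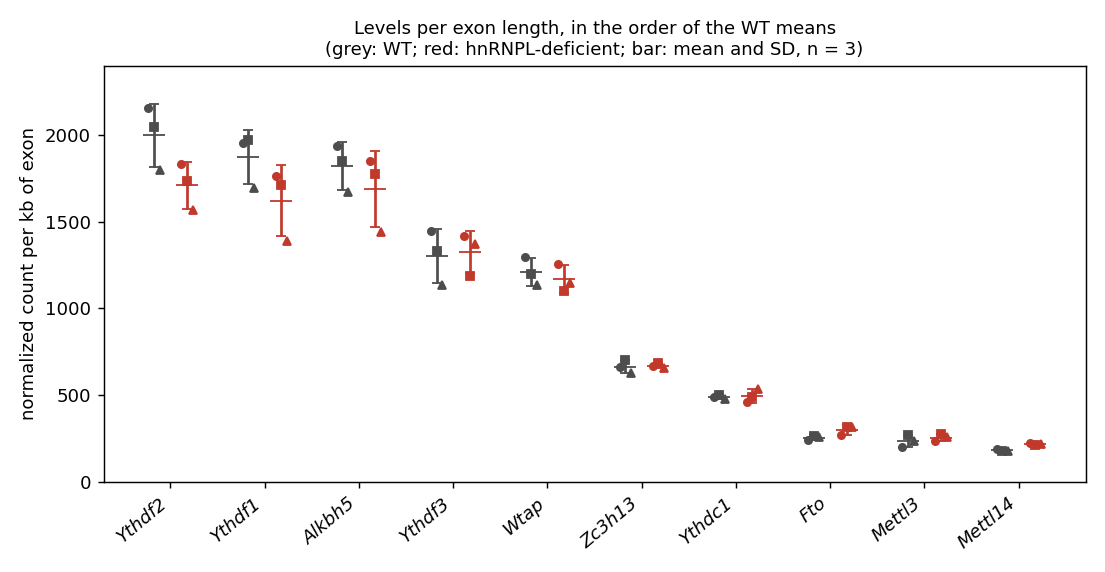
Normalized counts per kilobase of annotated exon (y axis, linear from 0) of the 10 genes in the order of their WT means, for WT (grey) and hnRNPL-deficient (red) libraries, replicates 1 to 3 as circle, square and triangle, with the mean ± SD (n = 3). *Ythdf2*, *Ythdf1* and *Alkbh5* are highest in WT (1998, 1874 and 1820.02) and *Fto*, *Mettl3* and *Mettl14* lowest (253, 234 and 182).

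Ratios within a library do not depend on how libraries are scaled, and 13 pairs of genes with the same role were compared in this way, a choice made after the single values had been seen. The ratios are of normalized counts per kilobase of annotated exon. *Mettl14* stood at 0.150 ± 0.00515 of *Wtap* in WT (SD, n = 3) and 0.186 ± 0.00677 in hnRNPL-deficient cells, and at 0.275 ± 0.0195 and 0.324 ± 0.0169 of *Zc3h13*. The ratio of *Ythdf2* to *Ythdf3* per kb was 1.49, 1.54 and 1.58 in WT and 1.29, 1.46 and 1.14 in hnRNPL-deficient replicates 1 to 3. In these 3 of 13 pairs the groups did not overlap. Of single tested genes 34.0% did not overlap, and the share for ratios of other genes was not computed. The pairs with *Mettl14* share that gene, whose single values were already apart. Each of the 3 pairs had p = 0.1 in the two-sided exact permutation test, the smallest possible, and 0.371 after Benjamini-Hochberg adjustment over the 13 pairs.

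The remaining pairs overlapped. Per kb of exon, *Mettl3* to *Mettl14* was 1.30 ± 0.237 in WT and 1.18 ± 0.137 in hnRNPL-deficient cells (exact permutation p = 0.4). *Fto* to *Alkbh5* per kb was 0.140 ± 0.0161 and 0.180 ± 0.0375 (exact permutation p = 0.2), with deficient replicate 1 at 0.144, between the WT values of 0.142 and 0.154. *Ythdf1* to *Ythdf2* per kb was 0.938 ± 0.0279 in WT and 0.945 ± 0.0525 in deficient cells (exact permutation p = 0.9).

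Set per kilobase of exon and summed, the cytoplasmic readers reached 5175 ± 486 normalized counts per kb in WT and 4656 ± 345 in hnRNPL-deficient cells, with overlapping groups (exact permutation p = 0.3). *Ythdf2* made up 38.8%, 38.2% and 38.8% of that sum in WT and 36.5%, 37.5% and 36.2% in hnRNPL-deficient replicates 1 to 3. The share of *Ythdf2* was lower in every deficient library (exact permutation p = 0.1), and rests on the same values as its ratio to *Ythdf3*. *Ythdf3* took 25.1% ± 0.780 in WT and 28.5% ± 3.07 in deficient cells (exact permutation p = 0.2), reaching 31.7% in deficient replicate 3 while *Ythdf1* was at 32.1% there.

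**Figure D4:**
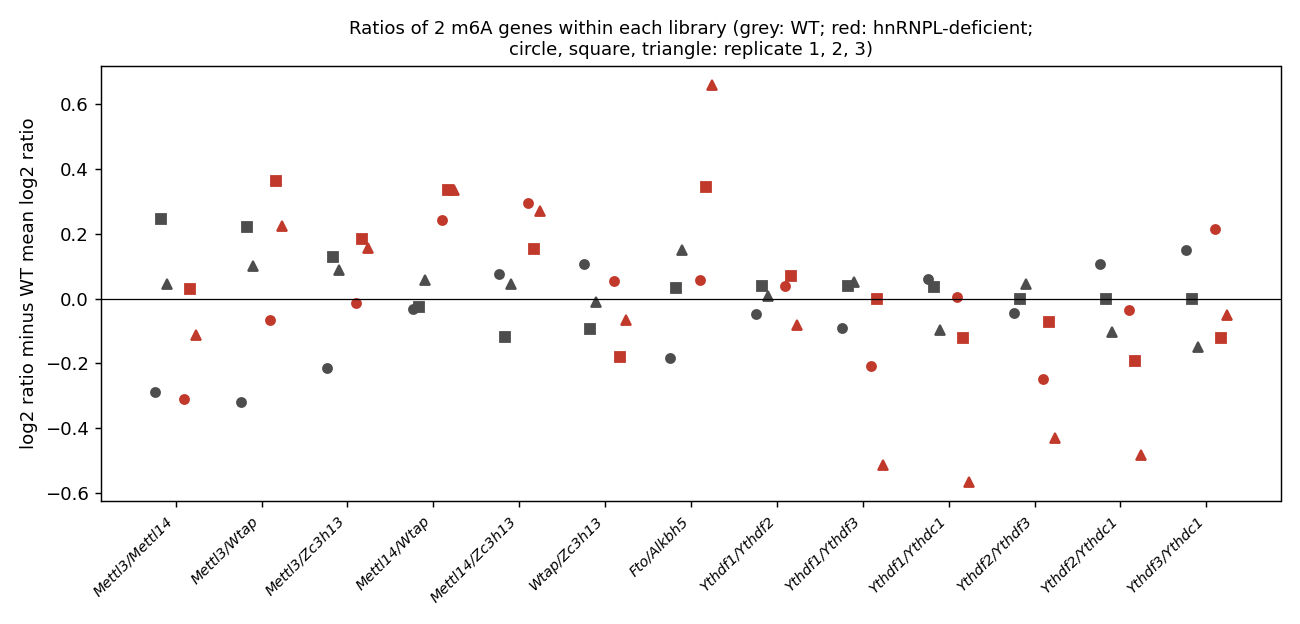
Log2 ratio of 2 genes of the same role in each library (y axis), minus the mean WT log2 ratio of that pair, for 13 pairs, with WT in grey, hnRNPL-deficient in red and replicates 1 to 3 as circle, square and triangle. The red points are all above the grey for *Mettl14*/*Wtap* and *Mettl14*/*Zc3h13* and all below for *Ythdf2*/*Ythdf3*.

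Around the 10 genes, 49 further genes were listed. They were writer adaptors, other methyltransferases and their partners, other readers, relatives of the erasers, CCR4-NOT subunits, *Ythdc1* partners and genes of methyl supply. Partners and relatives do not all write, remove or read m6A themselves, so the counts are not of m6A genes alone. Of the 49 genes, 48 could be tested (*Igf2bp1* was below the minimum). In limma 10 of 48 passed lower in hnRNPL-deficient cells, against 7.97% of all tested genes, and 1 of 48 passed higher, against 10.0%. The lower count fell to 3 without WT replicate 2 and to 6 without WT replicate 3. Of the genes that passed, 2 lower and 1 higher also changed at least 1.5-fold, against 11.4% of all tested genes in either direction. The groups did not overlap for 14 lower and 3 higher genes, a share near the 34.0% of all tested genes. The median log2 fold change of the 48 was -0.081, beside -0.027 for all tested genes. It was -0.069 for the 5462 tested genes whose mean lay between those of *Mettl3* and *Alkbh5*, so much of this tilt is shared by genes at that level. Of those genes 19.97% passed in either direction, and their share that passed lower was not computed. The 48 genes were not limited to that range.

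An m6A methyltransferase that works outside the *Mettl3* complex was lower. *Mettl16*, which methylates U6 small nuclear RNA and hairpins of the *Mat2a* messenger, had 6410, 6567 and 6034 normalized counts in WT and 4581, 4820.05 and 4342 in hnRNPL-deficient cells. The groups were well apart, at -0.47 on the log2 scale (standard error 0.0911, adjusted p = 0.0152 in limma). It was the 1 of 7 other methyltransferases and their partners that passed, where 18.0% of all tested genes passed. Among 4 adaptors of the writer complex only *Rbm15b*, which guides the complex to RNA, passed (-0.39, adjusted p = 0.0457), and not without WT replicate 2 or WT replicate 3 (adjusted p up to 0.164).

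Both genes of methyl supply that passed were lower. *Mat2a*, which makes S-adenosylmethionine, had 20474, 21908 and 19644 normalized counts in WT and 12166, 13288 and 10993 in hnRNPL-deficient cells, with no overlap. The log2 fold change came to -0.77 (standard error 0.103, adjusted p = 0.00339 in limma). *Ahcy*, which clears the by-product S-adenosylhomocysteine, changed by -0.50 (adjusted p = 0.0371), which did not pass without WT replicate 2 (0.106). These were 2 of 5 genes of methyl supply, against 18.0% of all tested genes, and *Mat2b*, *Ahcyl1* and *Mtr* did not pass.

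The *Mat2a* 3′ UTR holds the motif of the *Mettl16* hairpins, searched as TACAGAGAA or TACAGAAAA on the transcript strand. It occurs 6 times in *Mat2a*, the only one of 11532 coding transcripts with that many. This place was set by the choice of motif, which describes the *Mat2a* hairpins. Of the coding transcripts 8.63% hold the motif at least once, and none of the 10 genes does. The sites are shown because *Mettl16* and *Mat2a* both passed lower, and a link between these changes was not tested. Each window is 30 bases on the minus strand of chromosome 6 in GRCm38, 5′ to 3′, with the motif in capitals, and methylation there was not measured.
chr6:72434235-72434264: ttggcgtaggtTACAGAGAAgccttcaagc
chr6:72433451-72433480: cccttgtgataTACAGAGAAgtcacagggc
chr6:72433272-72433301: gctggtgtagcTACAGAGAAaccagcttcc
chr6:72433157-72433186: tatggcgtaagTACAGAGAAgccatcacct
chr6:72433046-72433075: ccaaggtgtccTACAGAAAAaccttgggtt
chr6:72432938-72432967: ggctggtgtggTACAGAGAAgccagcttgt

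Relatives of the erasers moved in both directions. *Alkbh3*, a repair demethylase that also removes methyl groups from transfer RNA, had 643, 729.736 and 750.205 normalized counts in WT and 1237, 1438 and 1378 in hnRNPL-deficient cells. All deficient libraries lay above WT, at 0.93 on the log2 scale (standard error 0.123, adjusted p = 0.00308 in limma). *Alkbh2*, a DNA repair demethylase, had 246, 269 and 239 in WT and 136, 174 and 119 in deficient cells (-0.83, standard error 0.200, adjusted p = 0.0335), and did not pass without WT replicate 2 or WT replicate 3 (adjusted p up to 0.117). The other 5 of the 7 relatives did not pass, where 18.0% of all tested genes passed.

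Some partners of the readers passed lower. *Cnot10*, a subunit of the CCR4-NOT complex that *Ythdf2* recruits, changed by -0.58 (standard error 0.0885, adjusted p = 0.00584 in limma) and *Cnot3* by -0.35 (adjusted p = 0.0425). These were 2 of 11 subunits tested, a share near the 18.0% of all tested genes that passed. *Srsf10* and *Srsf3*, splicing factors whose access to RNA *Ythdc1* is known to control, changed by -0.51 (adjusted p = 0.0630) and -0.34 (adjusted p = 0.0892). These were 2 of 3 listed *Ythdc1* partners, against 18.0% of all tested genes. The third, *Nxf1*, did not pass (-0.22, adjusted p = 0.314 in limma). *Hnrnpc*, which reads structural changes made by m6A, changed by -0.31 (adjusted p = 0.0829), the 1 of 11 other readers that passed. With 1 library left out, *Cnot3* did not pass without WT replicate 2, WT replicate 3 or deficient replicate 1 (adjusted p up to 0.129), and *Srsf10* without WT replicate 1 or 2 or deficient replicate 2 or 3 (up to 0.161). *Hnrnpc* passed only without deficient replicate 3 (otherwise up to 0.208), and *Srsf3* failed whichever of the 6 was left out (up to 0.239). Of the 11 genes that passed, *Mettl16*, *Mat2a*, *Alkbh3* and *Cnot10* did so without any 1 library and under every other alternative.

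**Figure D5:**
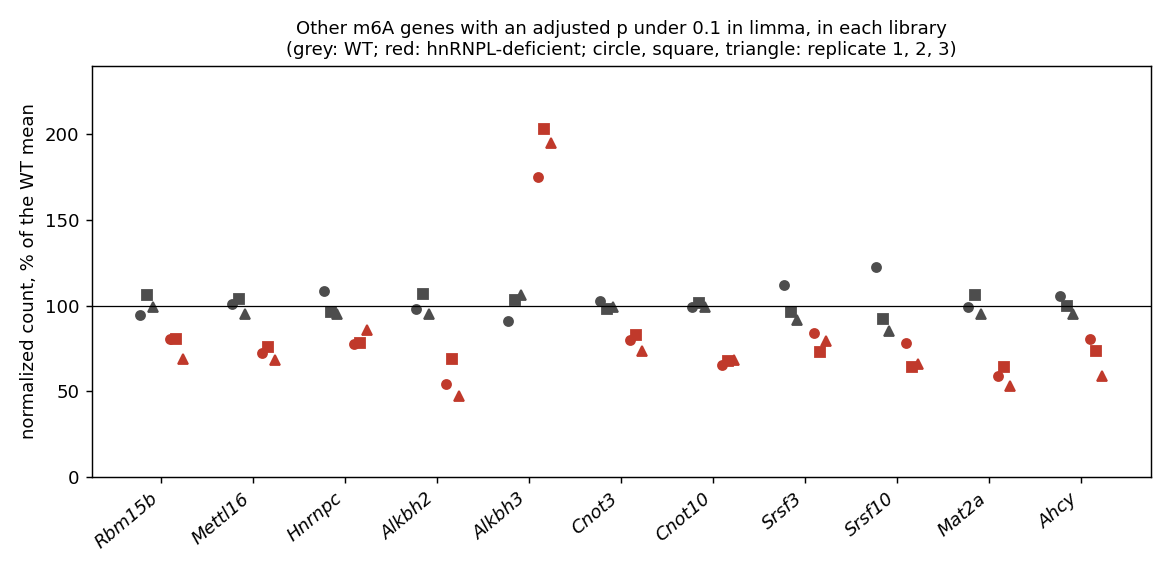
Normalized counts as a percentage of the WT mean (y axis, linear from 0) for the 11 further listed genes with an adjusted p under 0.1 in limma. WT is in grey, hnRNPL-deficient in red, and replicates 1 to 3 are circle, square and triangle. *Alkbh3* is the one gene with all red points above the grey, and for the other 10 all red points are below.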

How the data were processed

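RNA-seq of GFP+ activated splenic B cells from 3 WT and 3 hnRNPL-deficient mice was used. Per the labels and the study's methods, the authors trimmed reads with fastp (0.23.1), aligned them with STAR (2.7.9a) to mm10, counted them per gene by strand with featureCounts, and deposited the counts divided by DESeq2 (1.38.2) size factors, a signal per gene and library. The deposited columns of the authors' own comparison (mean, fold change, standard error, test statistic, p-values) were not used.

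The test was limma (3.58.1, R 4.3.3) fitted with a trend of variance on mean to log2(normalized count + 1) of the genes whose mean was 10 or more, and fold changes are on that scale. A gene passed where its Benjamini-Hochberg adjusted p was below 0.1, and the fold minimum was 1.5, as in the study. Single values and ratios were compared with a two-sided exact permutation test. The fit was tested on simulated data. The 10 genes and the lists were chosen with earlier results of these data known. Named are the 10 genes, the listed genes that passed, and others where 5 or fewer are counted. No most similar genes are named, since the rule asked for a gene that passed.

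Each library's values were whole multiples of 1 read within a tolerance of 0.001 reads, which gave the reads on genes (40395186 to 75180749). edgeR (4.0.16) with TMM and DESeq2 (1.42.0) were run on 5 libraries. The reads of hnRNPL-deficient replicate 2 were recovered too, but it was left out because its step near 1 was not recognized automatically. These count tests, the ratios and the sequence searches were added after values had been seen. Coordinates, exon lengths and transcripts are from GENCODE M21 on GRCm38, an earlier release than the authors used. Same replicate numbers, by their deviations from the group means, correlated at 0.429, 0.320 and 0.0663, and were not treated as pairs. The legend of a figure in the paper that shows values of these RNA-seq data compiles results from more than 1 experiment. Which library came from which experiment is not given in the sources used here.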

Additional observations from a re-analysis of the deposited data

How the results depend on the processing

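Over 17 alternatives, *Mettl3*, *Mettl14*, *Fto*, *Ythdf1* and *Ythdf2* kept their sign (*Mettl3* 0.012, without WT replicate 1, to 0.23, *Mettl14* 0.23 to 0.32, *Fto* 0.17 to 0.32, *Ythdf1* -0.28 to -0.085, *Ythdf2* -0.30 to -0.096), and the other 5 genes did not. *Wtap* became 0.0047 with equal totals, 0.076 with quantile normalization, 0.023 with array quality weights, 0.028 in edgeR and 0.0065 in DESeq2. *Alkbh5* became 0.0060 with quantile normalization and 0.014 with array quality weights, and *Ythdc1* -0.0046 with array quality weights. Leaving out 1 library moved *Zc3h13* between -0.025 (without WT replicate 3) and 0.056, *Ythdf3* between -0.070 (without WT replicate 3) and 0.11, and *Ythdc1* between -0.047 (without hnRNPL-deficient replicate 3) and 0.064. The cause was not tested. Equal totals shifted the median of all genes by 0.055. Of the 10 genes, 1 passed higher with equal totals and 1 with array quality weights (*Mettl14* in both), where 19.1% and 27.0% of all tested genes passed. None of the 10 passed in any fit that left out 1 library or with another pseudocount, filter, variance trend or quantile normalization. None passed the fold minimum under any alternative. The replicate number as a block passed 2 higher (*Mettl14*, *Fto*) and 2 lower (*Ythdf1*, *Ythdf2*, adjusted p 0.0617 to 0.0831 over these 4 in limma), with 5811 of all 17640 tested genes passing, 32.9%. Each deficient library correlated best with the WT library of its own number, though for replicate 3 this was only 0.0663. WT replicate 3 correlated better with deficient replicate 2 (0.305), and the numbers are not shown to pair the mice. Of the 48 further genes, the 1 higher became 2 with equal totals, 3 with array quality weights, 2 with the block and 1 to 2 when 1 library was left out. The 10 lower became 5 without the variance trend, 16 with the block, and 3 (without WT replicate 2) to 8 when 1 library was left out. Over all tested genes, 1284 were called higher and 719 lower, and 850 (without WT replicate 3) to 1124 and 483 to 695 when 1 library was left out. edgeR on 5 libraries called 1144 and 578, DESeq2 1180 and 721. *Mettl3* rests on 872 to 1581 reads a library, the fewest of the 10 genes, and has the widest interval.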

Other observations

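Promoters of 8 of the 10 genes, 300 bases each, were taken from RefSeq on GRCm38, with more than 1 for *Wtap* and for *Zc3h13*. Medians over these promoters, not over genes, were 64% GC and 32 CpG dinucleotides, beside 60.3% and 20 for 12375 promoters of tested genes. The repeats of these genes weigh on the medians. The m6A core motif GGACT, searched on the transcript strand, occurred in the longest coding transcripts of the 10 genes at a median of 0.916 per kb, beside 1.04 for all tested genes, and ranged from 0.196 in *Ythdf3* to 1.98 in *Mettl3*.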
